A study of Mus musculus with 17 samples.

Results

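The cytosolic ribosomal protein genes are the genes for the proteins of the small (40S) and large (60S) subunits of the ribosome. They were taken by name: symbols of Rpl or Rps followed by a number and, in some, a final a, x or l, together with Rpsa, Rplp0, Rplp1 and Rplp2. The rule found 81 genes among the 38340 named genes of the table, 30 of the small subunit, 46 of the large subunit and 5 with copy-like names ending in l. RNA was measured in 17 spleen libraries of CB57BL/6NCrl mice. SLR10, SLR14, polyIC and pppNS had 3 libraries each, vehicle had 2 and naïve, the untreated mice, had 3. The series' title names a ligand of RIG-I, the sensor of viral RNA in the cytosol. The RNA, 25 µg per mouse, was injected into a vein in a volume of 200 µl after the SLRs were complexed with the transfection reagent in vivo-jetPEI (N/P ratio 8). The series' design text calls the vehicle jetPEI. The labels carry that injection text with every library, naïve included, and give no time between injection and collection, no age and no sex. It is not stated that each library came from a separate mouse, so p-values measure the spread between these libraries.

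Ribosomal protein genes are among the most abundant transcripts of most cells, and their products are made in matched amounts and assembled with ribosomal RNA in the nucleolus. Their messenger RNAs typically start with a 5′ terminal oligopyrimidine (TOP) tract, a run of C and T that ties their translation to growth signals through mTOR and the tract-binding protein Larp1. In the spleen, lymphocytes that begin to divide and erythroid precursors are known for high ribosome production. In whole tissue, fewer cells of a type and less RNA per cell cannot be told apart.

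The start sites of 7 members the results turn on are shown because the tract is the feature the family is best known for. Each line runs 5′ to 3′ from 15 bases before the annotated start, 30 bases in all, from RefSeq (GRCm38.p6), with the longest run of C and T that overlaps the 5 bases before to 10 after the start in capitals.
Rpl7a: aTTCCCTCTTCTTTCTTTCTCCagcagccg
Rpl15: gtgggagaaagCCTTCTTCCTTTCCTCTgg
Rps18: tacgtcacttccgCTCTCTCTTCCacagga
Rps6: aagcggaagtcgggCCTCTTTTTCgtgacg
Rpl10a: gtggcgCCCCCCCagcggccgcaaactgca
Rplp0: gtcttcgggTTTCgaggaccgcctggttct
Rpl5: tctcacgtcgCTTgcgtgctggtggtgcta
The windows lie at chr2:26910792-26910821 (+ strand) for Rpl7a, chr14:18270972-18271001 (- strand) for Rpl15, chr17:33955651-33955680 (- strand) for Rps18, chr4:86857353-86857382 (- strand) for Rps6, chr17:28328456-28328485 (+ strand) for Rpl10a, chr5:115559452-115559481 (+ strand) for Rplp0 and chr5:107900513-107900542 (+ strand) for Rpl5. A run of at least 7 C or T, unbroken by A or G and read on the transcribed strand, overlapped that interval in 31 of the 60 members with a RefSeq promoter entry (51.7%), against 18.7% of 26965 other genes. The longest runs were 21 bases in Rpl7a, 20 in Rpl27a and Rpl34, 18 in Rpl35 and 17 in Rpl15. Rplp0 and Rpl5 had runs of only 4 and 3 bases at the annotated start. A match describes letters and not where transcription starts in these mice.

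Values are the deposited CPM, which the authors scaled with normalised library sizes. The recovered total per library was between 26.5 M and 42.8 M reads, and named genes took between 15.8 M and 29.6 M of these. 5 lines without a gene name held 28.1% to 46.1% of the reads. What these lines count is not stated, so reads shared between members and their many near-identical pseudogenes may be among them, and the level of any single member is uncertain to that extent. 27 members also overlap an exon of another gene on the same strand in GENCODE vM21, in most cases a small nucleolar RNA gene.

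Of the reads in named genes, the members took 5.52%, 5.28% and 5.55% in SLR10, 5.33%, 4.63% and 6.06% in SLR14 and 4.88%, 4.94% and 4.68% in polyIC. They took 5.20%, 5.74% and 13.0% in pppNS, 6.64% and 6.08% in vehicle and 6.62%, 7.73% and 11.3% in naïve. The members had 853196 to 2905734 reads a library, and a 95% Wilson interval, which covers counting error only, ran from 6.04% to 6.07% in SLR14 replicate 3. In pppNS replicate 3 and naïve replicate 3 the shares stood apart from those of their group mates. Member counts and family medians that rest on these libraries are thus given with and without them. For single members the fit with all libraries is not printed each time. The 9 SLR10, SLR14 and polyIC libraries all lay below both vehicle libraries, SLR14 replicate 3 by the least. Naïve replicate 1 lay between the vehicle libraries, and the other naïve libraries lay above them.

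**Figure D1:**
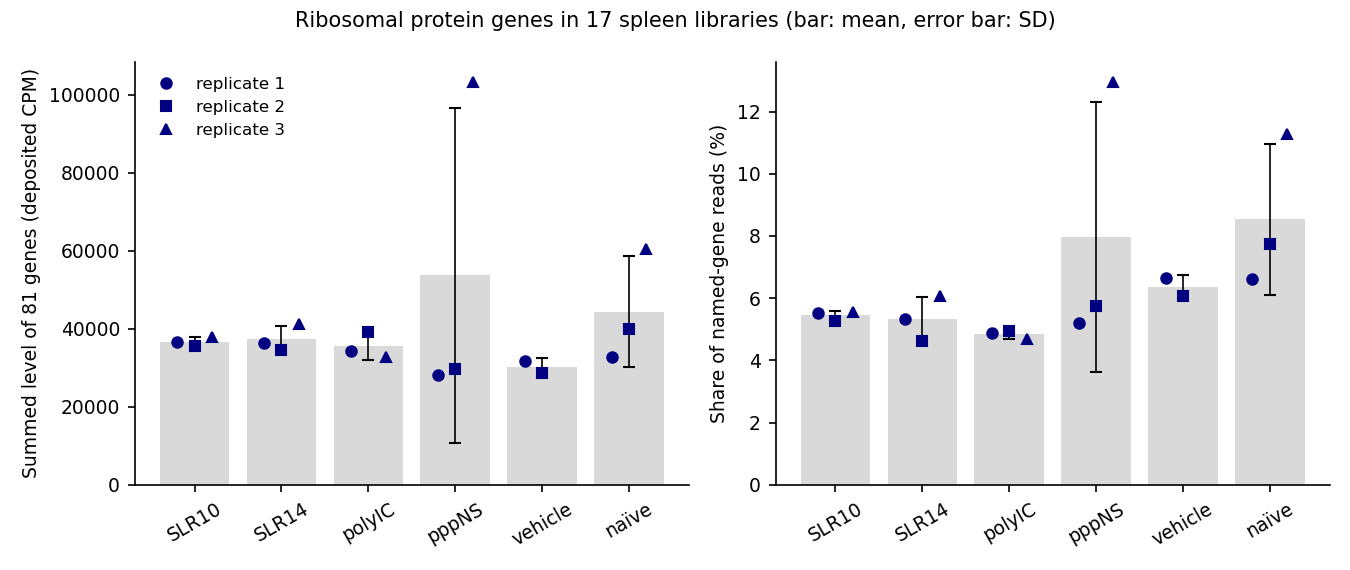
Summed deposited CPM of the 81 ribosomal protein genes (left) and their share of the reads in named genes in percent (right) for each library, with bars at the group mean and error bars of 1 SD (n = 3, vehicle n = 2). SLR10, SLR14 and polyIC lie above vehicle on the left and below it on the right, and replicate 3 of pppNS and of naïve are the highest points in both panels.

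The level of the median member told the opposite order. It was 451, 430.5 and 459 CPM in SLR10, 433, 415 and 499 in SLR14 and 419.8, 486 and 404 in polyIC. It was 353, 368 and 1153 in pppNS, 399.8 and 354 in vehicle and 399.6, 498 and 723 in naïve. All 9 SLR10, SLR14 and polyIC libraries were thus above both vehicle libraries. The deposited scaling gives the named genes of these 9 libraries summed values of 664989 to 794826 CPM, against 471992 and 478148 in vehicle, so a gene can hold a smaller share of the reads and a higher CPM.

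In the deposited values, ribosomal protein genes lay slightly higher in SLR10, SLR14 and polyIC than in vehicle, by a median of 0.25, 0.28 and 0.21 on the log2 scale over the 78 members that passed the filter on low values. The median over all 14012 genes tested was -0.01, 0.04 and 0.07. 76, 77 and 77 of the 78 members had a value above 0. A replicate block in the model lowered these medians, as given at the end. These 3 comparisons share the vehicle libraries, so their like values are not separate evidence. With all libraries in the model, Rpl7a was the single member that rose in SLR10, as it was in SLR14, and no member rose in polyIC. Of all genes, 20.2%, 19.3% and 18.6% rose in these comparisons and 19.2%, 19.4% and 17.3% fell, and no member fell. The counts are thus far under the background in both directions. At an unadjusted p under 0.05 they were 1, 2 and 1 members, against 6520, 6407 and 6190 of all genes tested.

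The count depended on pppNS replicate 3 and naïve replicate 3 (a fit added after the data were seen). Of the members that passed in that fit, only Rpl7a also passed in the full model, in SLR10 and SLR14. pppNS replicate 3 and naïve replicate 3 were set aside for the members' own shares. A member's adjusted p without them is thus not separate support. Without these libraries the medians were the same, and 20 members rose in SLR10, 22 in SLR14 and 12 in polyIC, against 27.2%, 26.2% and 25.8% of all genes. The members' shares, 20 of 78 and 22 of 78, are near that background, and 12 of 78 is below it. 18 members rose in both SLR10 and SLR14, and Rpl10a, Rpl15, Rpl4, Rpl6, Rpl7, Rpl7a, Rpl8, Rplp0 and Rps20 rose in all 3 comparisons. The share of all genes with such an overlap was not counted, and the comparisons share the vehicle libraries. The overlap is thus no result about the members. With only the 2 groups compared in the model, 62 members rose in SLR10, 10 in SLR14 and 0 in polyIC, against 35.3%, 22.1% and 18.1% of all genes.

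**Figure D2:**
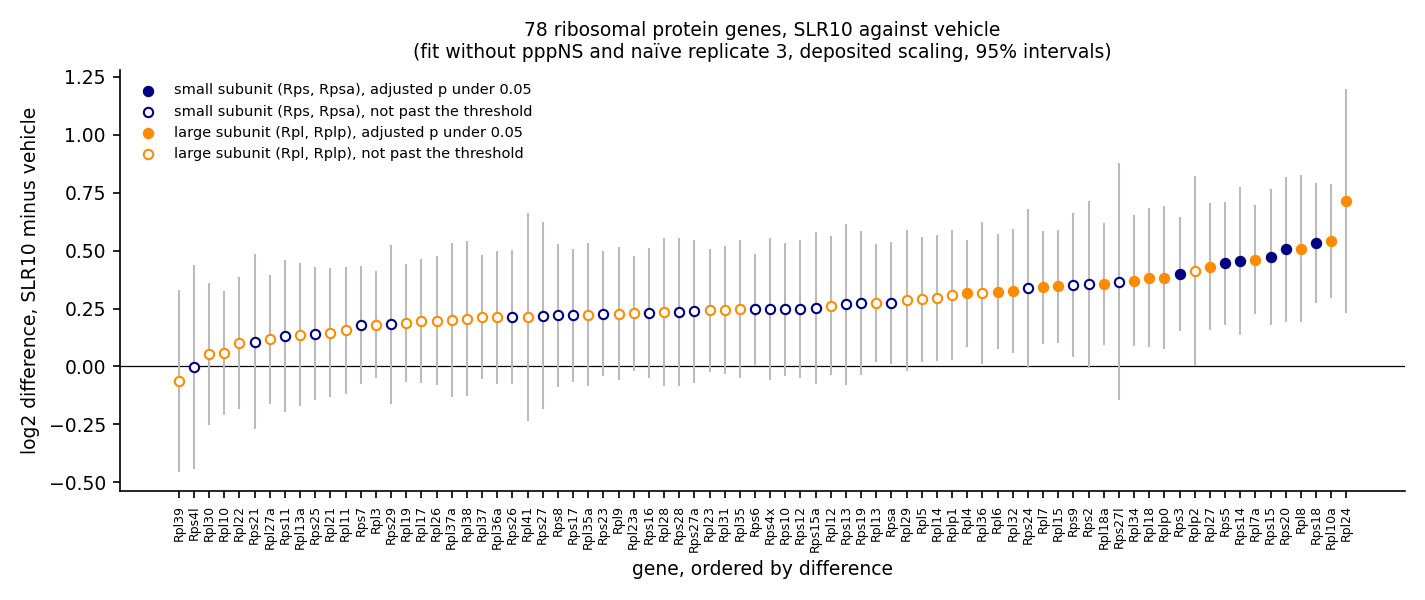
Log2 difference of SLR10 minus vehicle for each of 78 ribosomal protein genes in the fit without pppNS replicate 3 and naïve replicate 3, with 95% intervals, in the order of the difference. Filled points are the 20 members that passed an adjusted p of 0.05, and 76 of the 78 points lie above 0.

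The direction of the family rested on the scaling. When each library was scaled to the total of its named genes, the medians became -0.26, -0.28 and -0.41 in SLR10, SLR14 and polyIC. The all-gene medians then moved to -0.49, -0.50 and -0.52, so the members stayed above the typical gene. Under this scaling 0, 1 and 2 members fell, against 34.4%, 36.6% and 37.9% of all genes. Without pppNS replicate 3 and naïve replicate 3, 14, 25 and 66 members fell, against 48.4%, 50.8% and 52.7% of all genes. Quantile scaling, which gives every library the same distribution of values, placed the members at -0.60, -0.64 and -0.74 with all-gene medians of -0.09, -0.07 and -0.09. There 33, 36 and 54 members fell, against 20.5%, 21.5% and 21.7% of all genes, and without those libraries 69, 74 and 74 fell, against 28.5%, 29.5% and 30.5%. Median-of-ratios scaling kept the medians at 0.24, 0.26 and 0.16, with 0 members past the threshold in limma in each of the 3 comparisons. The share of all genes past it is not given for this scaling, so the count is no result about the members. Without pppNS replicate 3 and naïve replicate 3, members rose under this scaling in each comparison, with counts given at the end.

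**Figure D3:**
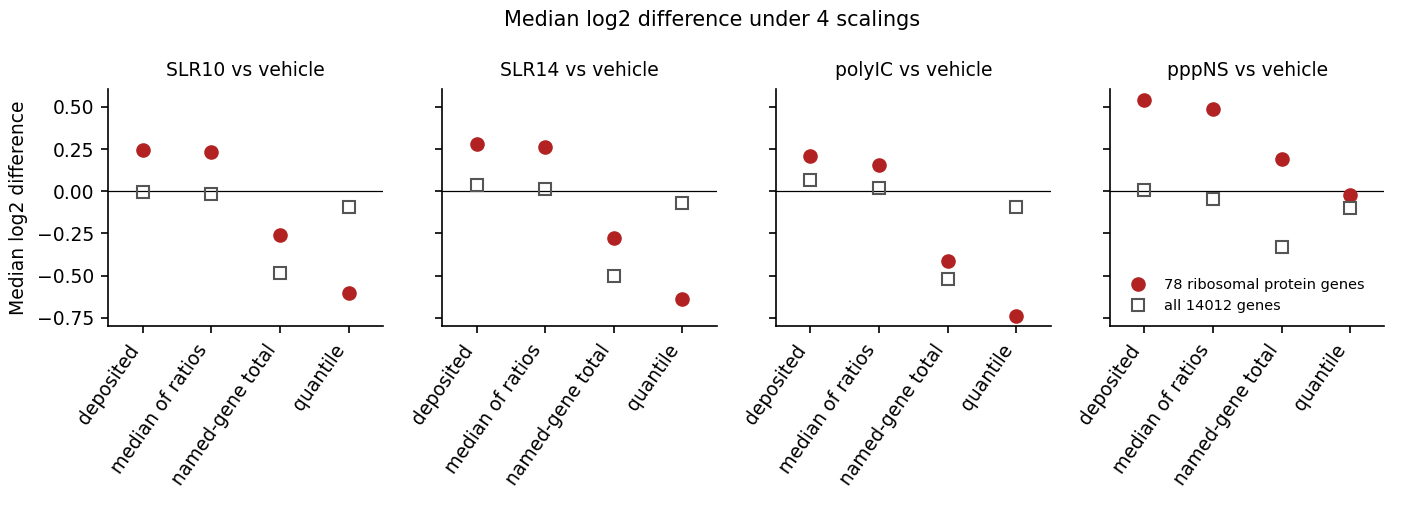
Median log2 difference from vehicle over 78 ribosomal protein genes (filled circles) and over all 14012 genes tested (open squares) under 4 scalings, 1 panel per treatment. In SLR10, SLR14 and polyIC the circles are above 0 in the deposited and median-of-ratios scalings and below 0 in the named-gene total and quantile scalings.

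The members' differences lay close together. The SD of the 78 log2 differences from vehicle was 0.13 in SLR10 and 0.12 in SLR14 and polyIC, against 1.06, 1.05 and 1.03 over all genes tested. The genes tested include low ones, and no set of genes at the members' level was compared. The differences of single members ran from -0.06 to 0.71 in SLR10, -0.20 to 0.57 in SLR14 and -0.23 to 0.55 in polyIC. Leaving out Rpl24 and the copy-like genes, the other 75 members lay between 102 (Rps27) and 3644 CPM (Rpsa) over all libraries. The small-subunit genes held 41.6% to 44.0% of the members' reads in every library. Relative to the median member of the library, Rps23 varied least, with an SD over the 17 libraries of 0.07 on the log2 scale, followed by Rps4x and Rpl31 with 0.07 each.

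Among small-subunit genes, Rps18 had 602, 592 and 623 CPM in SLR10, 596, 549 and 672 in SLR14, 484, 549 and 482 in polyIC, 427, 459 and 1889 in pppNS, 426 and 411 in vehicle, and 533, 655 and 852 in naïve. All SLR10 and SLR14 libraries were above both vehicle libraries, as were the polyIC libraries. The log2 difference from vehicle was 0.53 ± 0.45 (SE), adjusted p = 0.4 in SLR10 and 0.53 ± 0.45 (SE), adjusted p = 0.408 in SLR14 with all libraries in the model. Without pppNS replicate 3 and naïve replicate 3 the adjusted p was 0.00247 and 0.00266. Rps20, whose gene also hosts small nucleolar RNA, had 651, 584 and 646 CPM in SLR10, 637, 558 and 717 in SLR14, 579.9, 632 and 516 in polyIC, 421, 411 and 1005 in pppNS, 475 and 409 in vehicle, and 466, 593 and 976 in naïve. It rose by 0.51 in SLR10, 0.52 in SLR14 and 0.38 in polyIC without the libraries that stood apart, with adjusted p of 0.0105, 0.00865 and 0.0438, and passed in none of them with all libraries. Under quantile scaling both genes turned to negative values, in SLR10 to -0.29 for Rps18 and -0.34 for Rps20.

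Rps3, which lies at the entry channel for messenger RNA and also acts in DNA repair, had 782, 774 and 807 CPM in SLR10, 798, 716 and 859 in SLR14, 672, 774 and 682 in polyIC, 602, 631 and 1187 in pppNS, 608 and 587 in vehicle, and 712, 833 and 982 in naïve. With all libraries Rps3 passed in neither SLR10 nor SLR14. Without the libraries that stood apart it rose in SLR10 and SLR14, by 0.40 in each, with adjusted p of 0.0105 and 0.0104. Rps6, the target of the S6 kinases, had 541, 524 and 542 CPM in SLR10, 513, 521 and 575 in SLR14, 519.5, 624 and 508 in polyIC, 398, 421 and 1540.4 in pppNS, 471 and 432 in vehicle, and 479, 526 and 794 in naïve. Its difference from vehicle was 0.25 ± 0.11 (SE), adjusted p = 0.0775 in SLR10 without those libraries, so it did not pass. Rps19, the gene most often mutated in Diamond-Blackfan anaemia, had 439.5, 438 and 451 CPM in SLR10, 463, 418 and 547 in SLR14, 432, 435 and 386 in polyIC, 365, 372 and 695 in pppNS, 389 and 345 in vehicle, and 376, 509 and 753 in naïve. Rps19 passed in neither SLR10 nor SLR14 with all libraries. In the fit without the libraries that stood apart it rose in SLR14 (0.37 ± 0.14 (SE), adjusted p = 0.0463) and did not pass in SLR10 (0.27 ± 0.14 (SE), adjusted p = 0.129). The direct difference of SLR14 minus SLR10 for Rps19 was 0.10 ± 0.13 (SE), adjusted p = 0.965, so a difference between SLR14 and SLR10 was not detectable.

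Rpsa, the laminin-receptor protein of the small subunit, had 1109.5, 1079.8 and 1126 CPM in SLR10, 1064, 1043 and 1175 in SLR14, 1028, 1215 and 1022 in polyIC, 844, 957 and 3644 in pppNS, 941 and 886 in vehicle, and 1083, 1266 and 1955 in naïve. Rps27a, made as a fusion with ubiquitin, had 418, 381 and 445 CPM in SLR10, 439, 380.5 and 496 in SLR14, 388, 445 and 343 in polyIC, 331, 326 and 1482 in pppNS, 378 and 326 in vehicle, and 394, 450.0 and 737 in naïve. For both genes the SLR10 libraries were above vehicle, and neither passed in SLR10, SLR14 or polyIC with or without the libraries that stood apart. In SLR10 the log2 differences were 0.27 (95% interval -0.71 to 1.26) for Rpsa and 0.24 (-0.81 to 1.29) for Rps27a.

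Rpl7a, a large-subunit gene with the longest start-site tract shown above, had 506, 545 and 549.6 CPM in SLR10, 515, 561 and 562 in SLR14, 483, 560.2 and 488 in polyIC, 382, 433 and 532 in pppNS, 396 and 379 in vehicle, and 423, 486 and 593 in naïve. The SLR10, SLR14 and polyIC libraries were all above vehicle. They overlapped with naïve, whose replicate 3 was above every one of them. The log2 difference from vehicle was 0.46 ± 0.17 (SE), adjusted p = 0.0483 in SLR10 and 0.49 ± 0.17 (SE), adjusted p = 0.0361 in SLR14, or 1.38-fold and 1.41-fold. In polyIC it was 0.39 ± 0.17 (SE), adjusted p = 0.094. Leaving out any 1 library of the groups compared ended both calls, with adjusted p of 0.0732 to 0.206 in SLR10 and 0.054 to 0.173 in SLR14, while without pppNS replicate 3 and naïve replicate 3 they were 0.00339 and 0.00218. With the named-gene total the difference was -0.04 in SLR10 and -0.07 in SLR14, and with quantile scaling -0.36 and -0.42.

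Rpl10a had 432, 431 and 444 CPM in SLR10, 419.6, 393 and 467 in SLR14, 394, 406 and 364 in polyIC, 282, 321 and 1067 in pppNS, 303 and 295 in vehicle, and 324, 394 and 611 in naïve. Every SLR10, SLR14 and polyIC library was above both vehicle libraries. With all libraries, Rpl10a, Rpl15 and Rpl8 did not pass in SLR10, SLR14 or polyIC. Without the libraries that stood apart Rpl10a rose by 0.54 ± 0.11 (SE), adjusted p = 0.0015 in SLR10 and by 0.51 ± 0.11 (SE), adjusted p = 0.00234 in SLR14. Rpl15 had 224, 202 and 209 CPM in SLR10, 216, 217 and 232 in SLR14, 196, 237 and 196 in polyIC, 169.6, 179 and 156 in pppNS, 173 and 160.4 in vehicle, and 179, 216 and 279 in naïve. It rose in the same fit by 0.35 ± 0.11 (SE), adjusted p = 0.0208 in SLR10, and its level in pppNS replicate 3 was the lowest of all 17 libraries although that library was the highest for most members. Rpl8, near the peptidyl transferase centre, had 712, 702 and 770.0 CPM in SLR10, 718, 685 and 769 in SLR14, 587, 765 and 704 in polyIC, 550.0, 611 and 2200.3 in pppNS, 539 and 485 in vehicle, and 578, 771 and 943 in naïve and rose in that fit by 0.51 ± 0.14 (SE), adjusted p = 0.011 in SLR10.

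Rpl13a, known from the interferon-gamma-activated inhibitor of translation complex, had 804, 762 and 821 CPM in SLR10, 814, 713 and 918 in SLR14, 712, 834 and 703 in polyIC, 653, 678 and 3545 in pppNS, 757 and 690.3 in vehicle, and 838, 1079 and 1525 in naïve. The SLR10 libraries were above vehicle, and the differences of 0.14 in SLR10 and 0.05 in polyIC did not pass. Rpl10, which is placed last on the large subunit, had 461, 402 and 435 CPM in SLR10, 429.8, 412 and 484 in SLR14, 434, 463 and 419.9 in polyIC, 389, 407 and 790.3 in pppNS, 443 and 388 in vehicle, and 409, 516 and 699.5 in naïve. Its SLR10 and vehicle libraries overlapped, at 0.06 (95% interval -0.53 to 0.65). Rpl39, a small protein of the exit tunnel, was the one large-subunit gene with a value below 0 in SLR10, at -0.06 (95% interval -1.12 to 0.99).

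The stalk proteins Rplp0, Rplp1 and Rplp2 recruit elongation factors. None of their genes passed in SLR10, SLR14 or polyIC with all libraries. Rplp0 had 1081, 1079.6 and 1116 CPM in SLR10, 1086, 1207 and 1170.2 in SLR14, 989, 1338 and 1092 in polyIC, 864, 1003 and 3141 in pppNS, 871 and 804 in vehicle, and 986, 1201 and 1543 in naïve. It rose in all 3 ligand comparisons without the libraries that stood apart, by 0.38, 0.46 and 0.43. Rplp1 had 753, 711 and 762 CPM in SLR10, 724, 728 and 843 in SLR14, 654, 782 and 648 in polyIC, 556, 621 and 3644 in pppNS, 628 and 570.0 in vehicle, and 738, 899.8 and 1436 in naïve, and rose in that fit in SLR14 (0.35 ± 0.13 (SE), adjusted p = 0.0387). Rplp2 had 431, 411 and 459 CPM in SLR10, 428, 368 and 463 in SLR14, 405, 522 and 459 in polyIC, 353, 362 and 2129.8 in pppNS, 404 and 263 in vehicle, and 307, 417 and 611 in naïve, with vehicle libraries that differed from each other more than for most members. It rose in that fit in polyIC, by 0.49 ± 0.19 (SE), adjusted p = 0.0455.

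Rpl5 and Rpl11 form the particle with 5S ribosomal RNA that binds Mdm2 when ribosome assembly is disturbed. Rpl5 had 679, 656 and 685 CPM in SLR10, 669, 606 and 767 in SLR14, 706, 687 and 573 in polyIC, 512, 526 and 579 in pppNS, 564 and 537 in vehicle, and 589.9, 658 and 1022 in naïve. Rpl11 had 348, 351 and 382 CPM in SLR10, 352, 344 and 388 in SLR14, 339, 417 and 326 in polyIC, 268, 294 and 478 in pppNS, 341 and 305 in vehicle, and 334, 395 and 598 in naïve. Neither passed in any of the 6 comparisons with or without the libraries that stood apart, and in SLR10 the differences were 0.29 (95% interval -0.16 to 0.74) and 0.16 (-0.39 to 0.70). In pppNS replicate 3 Rpl5 was within the range of the other libraries.

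The copy-like members were low or silent in spleen. Rpl10l was at 0 in all 17 libraries. Rpl3l, a muscle form of Rpl3, reached at most 0.239 CPM and Rpl39l at most 0.265 CPM, both in naïve replicate 3, while their namesakes Rpl10, Rpl3 and Rpl39 lay between 388 and 790.3, 542 and 1339, and 145 and 574 CPM. Those 3 copies did not pass the filter. Rps27l, a p53 target, had 25.8, 21.3 and 24.4 CPM in SLR10, 22.8, 36.6 and 24.8 in SLR14, 20.9, 36.6 and 26.1 in polyIC, 21.9, 25.5 and 37.1 in pppNS, 18.5 and 18.2 in vehicle, and 22.6, 28.8 and 48.7 in naïve, against 102 to 445 CPM for Rps27. SLR14 replicate 2 and polyIC replicate 2 were the highest of their groups. Rps27l did not pass in any comparison, with 0.57 ± 0.32 (SE), adjusted p = 0.183 in SLR14. Rps4l, annotated as a transcribed processed pseudogene, had 2.50 to 6.20 CPM, while Rps4x had 665.7 to 2351.

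Per kilobase of annotated principal transcript, the mean levels over all libraries were highest for Rps24 (2295 CPM per kb), Rplp1 (1850.5) and Rps29 (1403). Of the members tested they were lowest for Rps27l (54.3), Rps4l (5.26) and Rpl24 (2.02). Rpl24 is a core large-subunit gene, and its deposited level of 0.539 to 4.30 CPM was far under its fellows. Its exons overlap those of the gene model Gm28037 on the same strand, and how the counting treated reads in both was not tested. Its difference in SLR10 was 0.71 ± 0.22 (SE), adjusted p = 0.0169 without the libraries that stood apart, and with all libraries the adjusted p was 0.211.

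Scaling each library to its median member asks which members shift against the rest of the family. With all libraries no member passed in SLR10, SLR14 or polyIC in limma. Without the libraries that stood apart, 4 members were higher in SLR10, 3 in SLR14 and 0 in polyIC, against 16.9%, 15.7% and 15.8% of all genes. Rpl10a rose against the family by 0.30 ± 0.10 (SE), adjusted p = 0.0264 in SLR10 and 0.26 ± 0.10 (SE), adjusted p = 0.0479 in SLR14. Rps18 rose by 0.29 ± 0.09 (SE), adjusted p = 0.0211 in SLR10 and 0.28 ± 0.09 (SE), adjusted p = 0.0246 in SLR14. Rps20 rose by 0.26 and 0.27, and Rpl24, whose level was near the filter of 1 CPM, by 0.55 in SLR10. This scaling places the members' median near 0 by design. That the counts lie far under the background is thus no result about the members.

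SLR14 and SLR10 gave like values across the family. The median of SLR14 minus SLR10 over 78 members was 0.02, with 0 members and 0% of all genes past the threshold in limma, with or without the libraries that stood apart. At an unadjusted p under 0.05 the counts were 0 members and 89 genes with all libraries. For Rpl7a the difference was 0.03 with a 95% interval of -0.30 to 0.37, so differences of that size in either direction remain possible. SLR14 replicate 2 had the lowest member share of all libraries.

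In pppNS, the family's median difference from vehicle was 0.54 with all libraries and -0.09 without the libraries that stood apart. With all libraries it was 0.19 with the named-gene total, 0.05 with scaling to the median member, -0.02 with quantile scaling and 0.84 by DESeq2. In the deposited scaling no member passed with or without those libraries, against 4.3% and 4.88% of all genes. pppNS replicates 1 and 2 lay at or below vehicle for most members, and 58 of 78 members had a value below 0. For vehicle minus naïve the median was -0.51 with all libraries and -0.25 without, again with 0 members past the threshold, against 0.05% and 0.101% of all genes. At an unadjusted p under 0.05, 2 and 16 members lay lower in vehicle. These counts stand without the share of all genes at that p and are no result about the members. Member shares in naïve replicate 2 were above both vehicle libraries, and those of naïve replicate 1 lay between them. Taking vehicle and naïve together as the control moved the medians of SLR10, SLR14 and polyIC to -0.05, -0.02 and -0.11.

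The excess in pppNS replicate 3 was not even over the family. Against the mean of replicates 1 and 2, the median member was 1.92 higher on the log2 scale. Rpl41, the shortest ribosomal protein, had 482, 470.4 and 470.1 CPM in SLR10, 427, 564 and 511 in SLR14, 398, 671 and 476 in polyIC, 348, 439.7 and 2788 in pppNS, 433 and 386 in vehicle, and 472, 613 and 1026 in naïve. It was 2.83 above its group mates, and Rpl38, Rplp1 and Rps26 were 2.77, 2.63 and 2.60 above. Rpl15, Rpl5, Rpl4 and Rpl7a were at -0.16, 0.16, 0.32 and 0.39. The correlation of the log2 levels of 75 core members between libraries ranged from 0.66 to 0.998 across genes that share each library, and the SD over members was 0.88 in pppNS replicate 3 against 0.63 to 0.71 in the others.

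The excess went with transcript length in genes at large. In pppNS replicate 3, other coding genes under 1 kb were 1.37 above their group mates in the median, those of 1 to 2 kb 0.58, those of 2 to 4 kb -0.07 and those over 4 kb -0.52. Members with an annotated transcript over 1 kb were at 1.54. Each length is that of a single annotated transcript, for the members tested 345 to 3706 bases, the longest in Rps20. Whether these transcripts are the ones expressed here was not tested. In naïve replicate 3 the members were 0.77 above and the 4 length classes stood at 0.46, 0.17, -0.10 and -0.30. Smaller steps with length also appeared in other libraries. In naïve replicate 1 minus replicate 2 the classes stood at -0.20, -0.11, 0.02 and 0.17. In polyIC replicate 1 against its group mates they stood at -0.19, -0.08, 0.03 and 0.16. In pppNS replicate 1 minus replicate 2 and in SLR14 replicate 2 all classes lay between -0.09 and 0.05. Among 75 core members the excess had a Pearson r with log2 length of -0.41 in pppNS replicate 3 and -0.46 in naïve replicate 3, across genes of the same library, which are not independent. Genes for mitochondrial ribosomal proteins were 1.25 above in pppNS replicate 3, while the ribosome assembly genes were 0.11 above. Erythroid genes were 1.71 above there. The part of length, RNA quality and cell content in the excess was not tested.

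**Figure D4:**
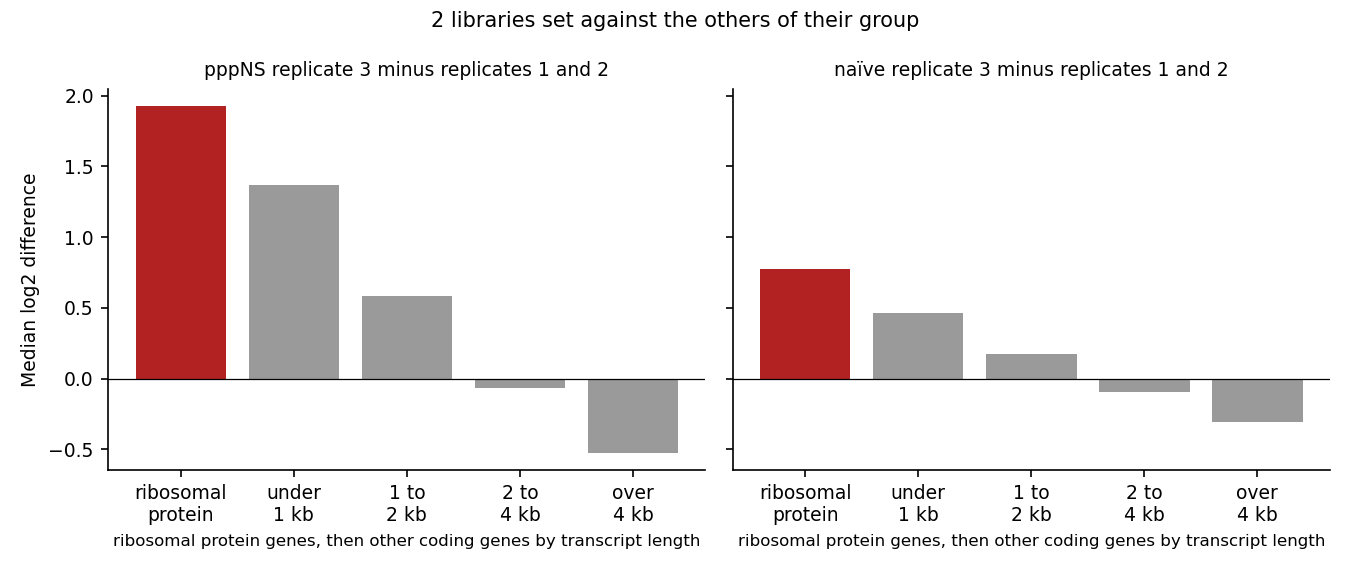
Median log2 difference of pppNS replicate 3 (left) and naïve replicate 3 (right) from replicates 1 and 2 of the same group, for 77 ribosomal protein genes with an annotated coding transcript and for other coding genes in 4 classes of transcript length. In both libraries the ribosomal protein genes are highest and the other genes step down from the shortest class to the longest, which lies below 0.

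Genes that build the ribosome rose widely in the deposited scaling. Of 53 genes for ribosome assembly and ribosomal RNA synthesis, 48 rose in SLR10, 47 in SLR14 and 41 in polyIC, with medians of 1.37, 1.12 and 0.89, and none fell, against the 20.2%, 19.3% and 18.6% of all genes that rose. In pppNS 4 rose, with a median of 0.32, against 2.95% of all genes. The counts depended on the scaling: 39, 33 and 20 rose in SLR10, SLR14 and polyIC under quantile scaling and 34, 20 and 7 under the named-gene total. The share of all genes that rose is not given for these scalings, so these counts alone are no result about the assembly genes. The medians of the 3 ligand comparisons stayed above 0 under quantile scaling (0.93, 0.77 and 0.51) and under the named-gene total (0.87, 0.57 and 0.28), where the members' medians were below 0.

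**Figure D5:**
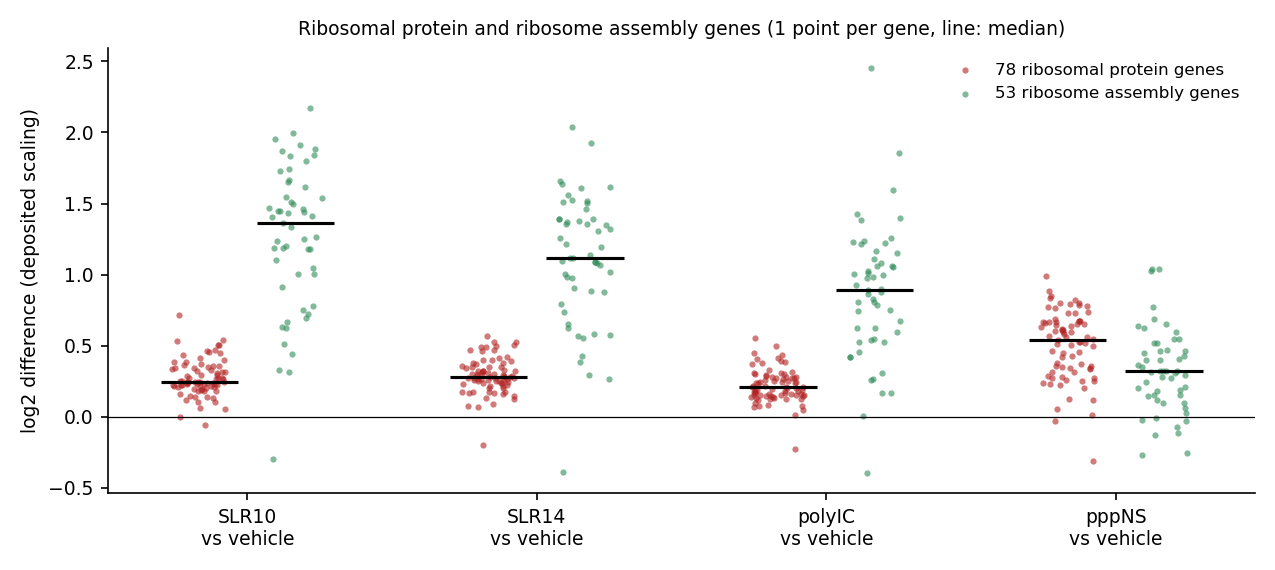
Log2 difference from vehicle in the deposited scaling for each of 78 ribosomal protein genes and 53 ribosome assembly genes, 1 point per gene, with a line at the median. In SLR10, SLR14 and polyIC the assembly genes centre on 1.37, 1.12 and 0.89 and the ribosomal protein genes on 0.25, 0.28 and 0.21, while in pppNS the order of the medians is the other way, 0.32 against 0.54, and turns to 0.24 against -0.09 without pppNS replicate 3 and naïve replicate 3.

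Wdr43, a factor of the small-subunit processome, had 247, 243 and 249 CPM in SLR10, 256, 204 and 250.3 in SLR14, 254, 215 and 206 in polyIC, 101, 80.5 and 100.3 in pppNS, 62.5 and 60.5 in vehicle, and 55.7, 51.9 and 45.7 in naïve. All SLR10, SLR14 and polyIC libraries were above all vehicle and naïve libraries. It rose by 1.99 ± 0.15 (SE), adjusted p = 3.4e-07 in SLR10. Nop58, a core protein of the snoRNA particles that methylate ribosomal RNA, had 165, 162 and 169 CPM in SLR10, 173, 129 and 164 in SLR14, 188, 142 and 146 in polyIC, 76.9, 77.0 and 62.3 in pppNS, 52.3 and 51.5 in vehicle, and 51.3, 45.5 and 41.2 in naïve and rose by 1.66 ± 0.17 (SE), adjusted p = 3.6e-06 in SLR10 with no overlap between the 3 ligand groups and vehicle. Noc2l and Ppan, whose yeast relatives act in large-subunit assembly, rose by 1.55 and 1.87 in SLR10.

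Of 22 other genes known for TOP tracts, 3 rose in SLR10, 2 in SLR14 and 2 in polyIC, which as shares lie under the 20.2%, 19.3% and 18.6% of all genes. Their medians were 0.37, 0.34 and 0.32. Their medians also turned negative, to -0.45, -0.49 and -0.49 under quantile scaling and to -0.14, -0.22 and -0.30 under the named-gene total. Npm1, a nucleolar chaperone, rose in all 3, by 0.95 ± 0.23 (SE), adjusted p = 0.00399 in SLR10. Of 19 genes that act on the synthesis or translation of ribosomal protein messages, 6 rose and 1 fell in SLR10, 6 rose in SLR14, 7 in polyIC and 4 in pppNS, where 20.2%, 19.3%, 18.6% and 2.95% of all genes rose. Larp1, the tract-binding repressor named above, had 418, 458 and 428 CPM in SLR10, 440.3, 360.0 and 342 in SLR14, 428, 320.0 and 368 in polyIC, 163, 137 and 125 in pppNS, 91.4 and 75.0 in vehicle, and 76.7, 71.5 and 54.1 in naïve. No ligand library overlapped with vehicle or naïve, and it rose by 2.38 ± 0.19 (SE), adjusted p = 4.8e-07 in SLR10 and 0.76 ± 0.19 (SE), adjusted p = 0.0348 in pppNS. Myc, which drives ribosome production, rose by 3.04 in SLR10, 2.53 in SLR14 and 3.20 in polyIC. Mxd1, an antagonist of Myc that pairs with Max, rose by 4.20, 4.64 and 4.65.

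Of 77 mitochondrial ribosomal protein genes tested, 9 rose in SLR10, 8 in SLR14 and 7 in polyIC, with medians of 0.26, 0.28 and 0.20. These values are from the deposited scaling, and those under the other scalings are not given. As shares these counts lie under the 20.2%, 19.3% and 18.6% of all genes that rose.

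B cell, T cell, neutrophil and red pulp macrophage markers differed between vehicle and the SLR10, SLR14 and polyIC groups. Erythroid and dividing-cell markers varied widely between libraries within SLR14 and polyIC. The 9 B cell markers tested summed to 1971 to 2139 CPM in SLR10, 1445 to 2012 in SLR14 and 1287 to 1829 in polyIC, against 2682 to 2703 in vehicle. The 10 T cell markers summed to 233 to 372 CPM in those 3 groups and 482 to 563 in vehicle. The 14 erythroid markers ranged from 3115 to 4574 CPM in SLR10 and from 3820 to 41545 in polyIC, with high values in SLR14 replicate 2 and in polyIC replicates 2 and 3, and with 76296 in pppNS replicate 3. No marker of these lists was at 0 throughout a group. The 10 markers of dividing cells followed the erythroid ones, at 236 to 281 CPM in SLR10, 256 to 325 in vehicle and up to 2262 in SLR14 and 3281 in polyIC. They summed to 912 to 2133 CPM in pppNS and 435 to 548 in naïve, above both vehicle libraries. In the erythroid-high libraries SLR14 replicate 2 and polyIC replicate 3 the member share was the lowest of its group, while in polyIC replicate 2 it was the highest of its group and in pppNS replicate 3 the highest of all libraries. The 10 neutrophil markers summed to 157 to 162 CPM in vehicle and 457 to 1488 in SLR10, SLR14 and polyIC, and the 9 red pulp macrophage markers to 1384 to 1611 in vehicle and 954 to 1262 in those groups. The part of cell content in the ribosomal protein values was not tested.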

How the data were processed

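RNA of whole spleen was sequenced in 17 libraries, made per the labels' protocols with a stranded mRNA kit from 500 ng of total RNA. The authors deposited 1 table of signal values, named CPM in the file header: per the submitters' processing notes, the tools were TopHat2 2.0.6 (TopHat is also listed), HTSeq, SAMtools 1.4, edgeR and FastQC, the builds GRCm38 and mm10, and the role of each is not given. The deposited columns do not share 1 total (696096 to 1484240), and at least 99.98% of values in each library are whole multiples of 1 read within 0.01, from which reads were recovered.

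Lines without a gene name (5), with a missing name (699) or a number for a name (27), and 113 extra lines of 87 repeated names were left out, which left 38340 genes. Genes that reached 1 CPM in 2 or more libraries (14012, of them 78 of 81 members) were fitted as log2(CPM + 0.5) with limma 3.58.1 (trend, R 4.3.3), all libraries in 1 model with no replicate block, Benjamini-Hochberg adjusted p over all genes with a threshold of 0.05. Log2 differences on this scale understate changes of low genes. The script was tested on simulated data. Named were members past the threshold, members past it also against the median member, copy-like genes with their namesakes, a panel by role, and the highest and lowest per kilobase; from each gene list, up to 4 genes by adjusted p. Members and lists were chosen with earlier results of these data known. Alternatives were other scalings, pseudocounts, filters, controls and tools (edgeR 4.0.16 and DESeq2 1.42.0 on recovered reads), a replicate block and leaving out libraries. Lengths, overlaps and positions came from GENCODE vM21 and RefSeq (GRCm38.p6).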

Additional observations from a re-analysis of the deposited data

Results flagged for a closer look

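Signal appeared in lines outside the members. Of the 42 ribosomal protein pseudogenes that passed the filter, the median in SLR10 replicate 1 was 1.27 above its group mates on the log2 scale and 26 of the 42 were over 2-fold above, while the 78 members of that library were 0.01 above in the median and none was over 2-fold. Rps6-ps4 had 90.2 CPM there, 28.4 and 26.3 in the other SLR10 libraries and 20.9 and 22.0 in vehicle. Rpl10-ps3 had 11.8 CPM there, and 2.24 and 2.67 in its group mates. In pppNS replicate 3 the pseudogenes were 1.58 above their group mates, near the members' own excess there. The second line without a gene name held 7.74% of the reads of pppNS replicate 3, against 1.30% and 1.46% in vehicle. Why these values stand apart was not tested.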

How the results depend on the processing

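Counts of members past the threshold and family medians are given for SLR10, SLR14 and polyIC against vehicle, in that order, unless another comparison is named. With all libraries the counts were 1, 1 and 0. They were 0, 0 and 0 with no filter, 0, 0 and 0 with median-of-ratios scaling, 0, 0 and 0 with scaling to the median member, 0, 0 and 0 with vehicle and naïve as the control, and 0, 0 and 0 by edgeR. The share of all genes past the threshold is not given for these settings, for the replicate block or with 1 library left out. Those counts are thus no result about the members. Members were lower with the named-gene total (0, 1 and 2) and with quantile scaling (33, 36 and 54) and higher with only the groups compared in the model (62, 10 and 0). The labels' replicate numbers did not pair the libraries throughout. Same-numbered libraries of different groups had a median correlation of deviations of 0.03 over 40 pairs, with 15 over 0.1. For different numbers it was -0.03 over 80 pairs, with 27 over 0.1. Some same-numbered pairs were high, with SLR14 and polyIC at 0.80 for replicate 1 and for replicate 2. pppNS and naïve replicate 3 were at 0.75. SLR14 and polyIC replicate 3 were at -0.52, and SLR14 replicate 3 and polyIC replicate 1 at 0.72. With the replicate block the counts were 0, 1 and 0 and the medians 0.072, 0.10 and 0.026.

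The medians were -0.26, -0.28 and -0.41 with the named-gene total, -0.60, -0.64 and -0.74 with quantile scaling, 0.00088, 0.034 and -0.0019 with scaling to the median member, and -0.046, -0.017 and -0.11 with both controls. SLR14 minus SLR10 turned to -0.037 with the named-gene total and -0.033 with quantile scaling, pppNS minus vehicle to -0.023 with quantile scaling, and vehicle minus naïve moved to -0.030 with scaling to the median member. For single members the named-gene total gave -0.042 for Rpl7a in SLR10 and -0.069 for Rpl7a, -0.055 for Rpl10a, -0.035 for Rps18 and -0.039 for Rps20 in SLR14. Quantile scaling gave -0.36 for Rpl7a, -0.29 for Rpl10a, -0.29 for Rps18 and -0.34 for Rps20 in SLR10 and -0.42 for Rpl7a, -0.36 for Rpl10a, -0.42 for Rps18 and -0.41 for Rps20 in SLR14.

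Fits without pppNS replicate 3 and naïve replicate 3 were chosen after seeing the data. Members past the threshold were higher in the deposited scaling (20, 22 and 12) and with the median member (4, 3 and 0). They were also higher with median-of-ratios scaling (16, 15 and 3), where the share of all genes is not given. They were lower with the named-gene total (14, 25 and 66) and, but for 1 member in SLR10, with quantile scaling (70, 74 and 74). Their medians were -0.26, -0.28 and -0.41 with the named-gene total, 0.00088, 0.034 and -0.0019 with the median member and -0.58, -0.61 and -0.71 with quantile scaling. For pppNS minus vehicle they were -0.086 in the deposited scaling, and -0.24, -0.024, -0.27 and -0.14 with the named-gene total, the median member, quantile and median-of-ratios scaling. For vehicle minus naïve they were -0.0013 with the median member and -0.069 with quantile scaling, and for SLR14 minus SLR10 -0.037 with the named-gene total and -0.032 with quantile scaling. With the named-gene total the single members were at -0.042 for Rpl7a in SLR10 and -0.069 for Rpl7a, -0.055 for Rpl10a, -0.035 for Rps18 and -0.039 for Rps20 in SLR14, and with quantile scaling at -0.34 for Rpl7a, -0.28 for Rpl10a, -0.28 for Rps18 and -0.32 for Rps20 in SLR10 and -0.38 for Rpl7a, -0.35 for Rpl10a, -0.39 for Rps18 and -0.39 for Rps20 in SLR14.

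Leaving out any 1 library of the groups compared gave counts of 0 to 0 in SLR10 and 0 to 0 in SLR14. The medians then ran from 0.17 to 0.34 in SLR10, 0.21 to 0.36 in SLR14 and 0.13 to 0.28 in polyIC, each lowest without vehicle replicate 2. They ran from -0.086 to 0.90 in pppNS, lowest without pppNS replicate 3, from -0.70 (without naïve replicate 1) to -0.25 (without naïve replicate 3) in vehicle minus naïve, and from -0.051 to 0.076 in SLR14 minus SLR10. Where the scaling turned the direction, the cause was not tested. At these depths counting error is small beside the spread between libraries, and vehicle has only 2 libraries.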
